A study of Homo sapiens with 12 samples.

Results

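The genes described here are 10 pluripotency factor genes, POU5F1, NANOG, SOX2, KLF4, SALL4, DPPA2, DPPA4, LIN28A, LIN28B and PODXL, out of 20033 protein-coding genes. They were given by name. For each gene, a window of the gene body with 50 kb on each side was taken from GENCODE release 44 on hg38, and the called regions with their midpoint in the window were counted. The calls are differentially methylated regions (DMRs), stretches of a few CpGs where the level of 5-methylcytosine (5mC) or of its oxidation product 5-hydroxymethylcytosine (5hmC) differed between cell stages. All 4 tables of the study held 153965 DMRs, and 111 distinct DMRs lay in the 10 windows.

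The cells were WIS2, a human ES cell line. The reference stage was 4i ES cells, kept with 4 kinase inhibitors in a medium that makes them competent for germline fate. N3+PGCLCs were primordial germ cell-like cells (PGCLCs) positive for a NANOS3 reporter, sorted on day 3 of induction with BMP2, SCF and EGF. The d8 DZ+PGCLCs were sorted for a DAZL reporter on day 8 of a protocol that induced SOX17 and DMRT1 transgenes with dexamethasone and doxycycline and replaced BMP2, SCF and EGF by retinoic acid, Activin A, SCF and EGF. They came from another reporter line of WIS2. Their reporter gene, DAZL, is itself sensitive to DNA methylation. The PGCLC stages thus differed in time, culture, induced factors, line and sorted marker, and the shares of these in a difference between the stages cannot be told apart. 5mC was read by TAPSβ and 5hmC by CAPS+, in 2 replicates of each stage, which gave 12 libraries. Hyper and hypo DMRs are those the authors called higher or lower in PGCLCs than in the same 4i ES cell libraries, and they are named gains and losses below. The tables give the position and the direction of a DMR but no level, p-value, depth or value per replicate, so that no spread or test can stand beside a count. Counts in the windows are therefore read against all protein-coding genes.

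POU5F1, NANOG and SOX2 encode the transcription factors at the centre of the network that keeps ES cells pluripotent. In early human primordial germ cells POU5F1 and NANOG stay on, whereas SOX2 is switched off and SOX17 is used in its place. For DAZL-positive PGCLCs, however, the paper reports that induced DMRT1 and SOX17 suppressed POU5F1 and NANOG, as in later germ cells. Expression was not part of the data used here. 5mC at promoters and enhancers is known for its association with silenced genes, and 5hmC arises from 5mC by TET enzymes and can be a step in its removal. The other members are the zinc finger factors KLF4 and SALL4, the chromatin proteins DPPA2 and DPPA4, the RNA-binding proteins LIN28A and LIN28B, which block maturation of let-7 microRNAs, and PODXL, a surface sialomucin of ES cells.

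In d8 DZ+PGCLCs, 9 of the 10 genes had a 5mC loss in the window and 9 had a 5hmC gain, POU5F1 being the exception in both. In windows of this size these counts of genes were close to the background, since 82.9% of all protein-coding genes had a day 8 5mC loss and 79.1% a day 8 5hmC gain. The number of losses was not, as the median was 5.28 per 100 kb of window for members and 2.59 over all genes. With flanks of 10 kb, in turn, 4 members had a loss, against 60.9% of all genes. In the full windows, counts of genes with a 5mC gain stood further from the background. A day 8 5mC gain lay in 6 of the 10 windows, those of NANOG, SOX2, SALL4, DPPA2, DPPA4 and PODXL, against 19.0% of all genes. The overlapping windows of DPPA2 and DPPA4 held the same gains. Within 10 kb of the transcription start site (TSS, the 5′ end of the gene record) the contrast was wider. There, 4 members had a day 8 5mC gain, NANOG, SALL4, DPPA4 and PODXL, against 4.35% of all genes. A day 8 5mC loss lay as near to the TSS of 2 members, SALL4 and LIN28B, against 37.7%, and a day 8 5hmC gain to that of 2, SALL4 and DPPA4, against 32.2%. These shares carry no test, because the genes were chosen with results of these data known. The plan named a distance of 5 kb, and 10 kb was not in it. The SALL4 gain lay 9.54 kb from the TSS, and the share of all genes at 5 kb was not counted. Loss of 5hmC was found at no member on day 8, where 4.26% of all genes had one.

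**Figure D1:**
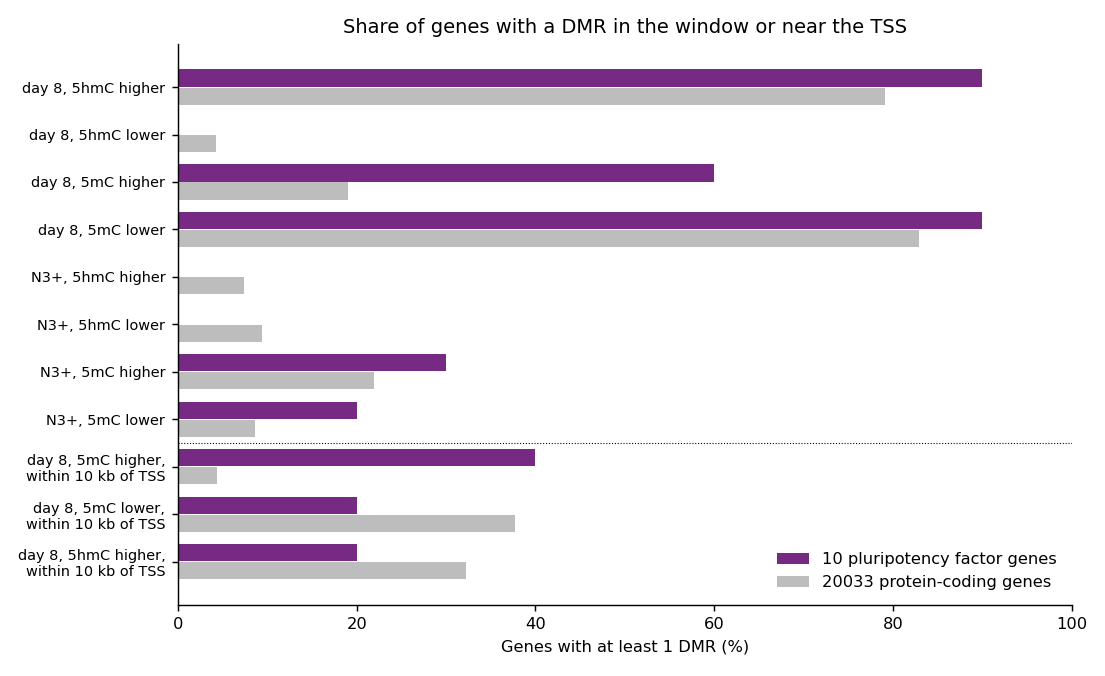
Share of genes, in percent, with at least 1 DMR of each table and direction, for the 10 pluripotency factor genes (purple) and the 20033 protein-coding genes (grey). The 8 upper pairs of bars count DMRs in the gene body with 50 kb on each side and the 3 lower pairs those within 10 kb of the TSS. Day 8 5mC gains within 10 kb of the TSS were found at 4 of 10 members and 4.35% of all genes.

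N3+PGCLCs had few DMRs at these genes, and few 5mC losses and 5hmC gains anywhere. Over the genome they had 1340 5mC losses and 1062 5hmC gains, against 90767 and 51567 on day 8. Their 5mC gains (3551) and 5hmC losses (1447) were not fewer than those of day 8 (3496 and 735). No member had a 5hmC gain or a 5hmC loss in N3+PGCLCs, where 7.42% and 9.45% of all genes did. A 5mC gain lay in 3 windows, those of NANOG, DPPA2 and DPPA4, against 21.9% of all genes, and a 5mC loss in 2, those of NANOG and LIN28B, against 8.62%. The same 3 genes had 5mC gains in both stages, which 7.01% of all genes had, and both sets of calls rest on the same 4i ES cell libraries. At least 3 day 8 5mC gains lay in 4 windows, those of NANOG, DPPA2, DPPA4 and PODXL, against 1.35% of all genes. DPPA2 and DPPA4 are neighbours, and their windows shared 14 DMRs, the 4 day 8 gains of 5mC among them, so that these counts stem from 3 places in the genome.

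Over the 10 genes together, the windows held 56 distinct 5mC losses, 36 5hmC gains and 12 5mC gains of d8 DZ+PGCLCs, and 5 5mC gains and 2 5mC losses of N3+PGCLCs. The median member had 6 5mC losses, 3 5hmC gains and 1 5mC gain on day 8, where the median protein-coding gene had 4, 3 and 0. Of the 68 day 8 5mC DMRs of the members, 17.6% were gains, and of all day 8 5mC DMRs 3.71%. The median member had a body of 17.7 kb, against 27.5 kb over all genes. LIN28B, with 147 kb and 27 DMRs, and PODXL, with 58.0 kb and 9 DMRs, were longer than the median gene.

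**Figure D2:**
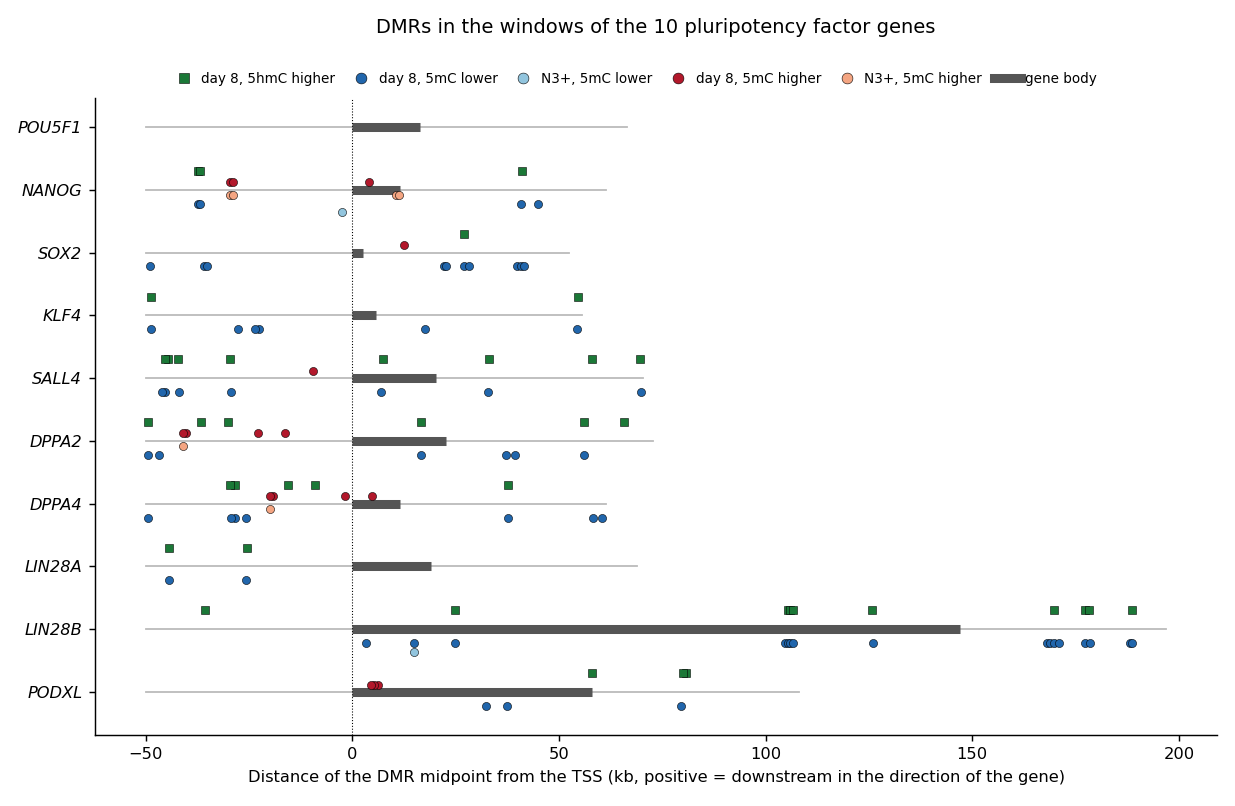
Position of every DMR in the windows of the 10 genes, as the distance of its midpoint from the TSS in kb, positive in the direction of transcription. Thick grey bars are gene bodies, thin lines the windows, squares 5hmC gains, and circles 5mC losses (blue) and gains (red, orange for N3+PGCLCs). Day 8 5mC gains lie within 10 kb of the TSS of NANOG, SALL4, DPPA4 and PODXL, most day 8 losses lie farther out, and the window of POU5F1 is empty.

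The kinds of DMR differed in place and size. The 12 day 8 5mC gains had a median distance of 7.86 kb to the nearest member TSS, and 7 of them (58.3%) lay within 10 kb. For the 56 losses the median was 40.3 kb and 2 (3.57%) lay within 10 kb, and for the 36 5hmC gains it was 45.1 kb with 2 (5.56%). These distances were not taken over the windows of all protein-coding genes. Whether they are particular to the members or belong to these kinds of DMR in general is therefore not known. 5mC gains spanned a median of 520.5 bases and 10 CpGs (3 to 37), 5mC losses 405.5 bases and 6.5 CpGs (2 to 29), and 5hmC gains 244.5 bases and 4 CpGs (2 to 15). In the whole tables the median DMR held 10 CpGs for 5mC gains, 5 for losses and 4 for 5hmC gains, and gains were the kind with the most CpGs there as well.

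NANOG, a homeodomain factor on chromosome 12 (chr12:7787794-7799146, plus strand), had 15 DMRs, or 13.5 per 100 kb of window, more than 92.9% of protein-coding genes. It was the member with the most DMRs in N3+PGCLCs, with 4 5mC gains and 1 loss. The DMR with the most CpGs of all 10 windows was a day 8 5mC gain in its intron 1, chr12:7790626-7792730, with 37 CpGs over 2105 bases, centred 3.88 kb downstream of the TSS and 2.28 kb downstream of the TSS of the MANE Select transcript, the reference transcript of the gene. In N3+PGCLCs this interval held no call. There, 5mC gains of 10 and 3 CpGs lay in exon 4, the last exon (chr12:7797912-7798623 and chr12:7798957-7798988), and a 5mC loss of 13 CpGs lay 2.46 kb upstream of the TSS (chr12:7785100-7785564). None of these 3 overlapped a day 8 DMR.

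A pair of 5mC gains upstream of NANOG was called in both stages. The first was at chr12:7757910-7758237 in N3+PGCLCs, with 14 CpGs, and at chr12:7757976-7758237 in d8 DZ+PGCLCs, with 9 CpGs, 29.7 kb upstream. The second began at base 7758874 in both stages and ended at 7759015 in N3+PGCLCs, with 6 CpGs, and at 7759110 in d8 DZ+PGCLCs, with 9. Neither had its midpoint in an annotated protein-coding or long non-coding RNA gene, and other kinds of gene were not searched. The first, and the N3+PGCLC loss nearer to the TSS, held a stretch of at least 100 bases with at least 1000 matches of 90% identity elsewhere in hg38, and the gain of 3 CpGs in exon 4 had a copy of its whole length elsewhere, whose part in these calls was not tested. Farther out, 2 day 8 5hmC gains with 6 and 2 CpGs, in introns of CLEC4C, a lectin of plasmacytoid dendritic cells, had the same ends as 2 5mC losses (chr12:7750407-7750575 and chr12:7750969-7751061). Downstream, 2 further 5mC losses lay in SLC2A14, a glucose transporter, 40.8 and 45.0 kb from the TSS, the nearer with a 5hmC gain on it. Loss of 5mC on day 8 thus lay at the far ends of the window and gain nearer to or within the gene.

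**Figure D3:**
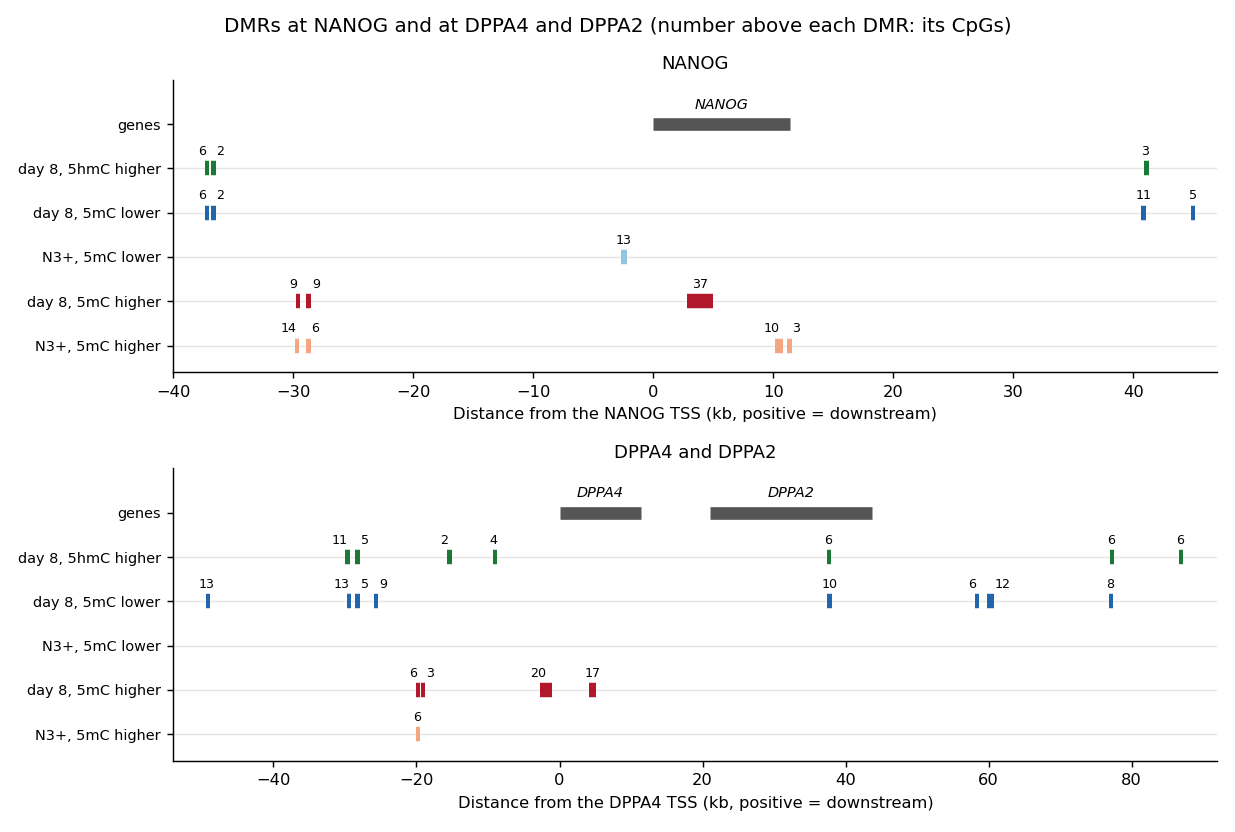
DMRs around NANOG (upper plot) and around DPPA4 and DPPA2 (lower plot), as distance in kb from the TSS of NANOG or DPPA4, with a row for each kind of call and the number of CpGs above each DMR. DMRs are drawn to scale with a minimum width so that short ones can be seen. Day 8 5mC gains with 37, 20 and 17 CpGs lie in or next to NANOG and DPPA4. Day 8 losses lie farther out or, for DPPA2, in the body, whereas an N3+PGCLC loss with 13 CpGs lies 2.46 kb upstream of the NANOG TSS.

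SOX2, an HMG-box factor on chromosome 3 (chr3:181711925-181714436, plus strand), had 12 DMRs, all on day 8, and 10 of these were 5mC losses, the second highest count of losses after LIN28B. No DMR lay in the gene, whose body is only 2.51 kb long, and the nearest was the 1 5mC gain, 12.5 kb downstream of the TSS (chr3:181724125-181724691). It was dense, with 26 CpGs in 567 bases. The losses lay 22.2 to 41.6 kb downstream and 35.3 to 48.9 kb upstream and held 2 to 10 CpGs each. Only 1 of the 10 carried a 5hmC gain, 27.0 kb downstream (chr3:181738845-181739100, 3 CpGs). Every one of the 12 lay within SOX2-OT, the long non-coding RNA gene in whose intron SOX2 sits, and 11 of them in its introns. The reference sequence of the 5mC gain is printed because it had the most CpGs per base of the day 8 5mC gains. Sequences are on the plus strand of hg38 with CpGs, the bases where 5mC and 5hmC were read, in capitals, and for DMRs over 300 bases the 300 bases with the most CpGs were taken.
Day 8 5mC gain downstream of SOX2, chr3:181724314-181724613, 22 CpGs: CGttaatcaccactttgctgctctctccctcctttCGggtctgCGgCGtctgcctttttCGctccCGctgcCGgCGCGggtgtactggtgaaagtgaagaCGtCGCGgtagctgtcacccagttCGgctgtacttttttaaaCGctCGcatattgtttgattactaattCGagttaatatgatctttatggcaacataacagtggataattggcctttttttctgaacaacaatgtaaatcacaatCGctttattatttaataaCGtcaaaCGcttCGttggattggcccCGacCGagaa
This stretch held 22 of the 26 CpGs of the DMR in 300 bases.

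KLF4, a zinc finger factor on chromosome 9 (chr9:107484852-107490482, minus strand), had 8 DMRs, 6 5mC losses and 2 5hmC gains of d8 DZ+PGCLCs, and no gain of 5mC. Neither the body nor the 10 kb around the TSS held a DMR. The nearest was a loss of 7 CpGs 17.5 kb downstream (chr9:107472772-107473217). Upstream, 3 losses of 5, 9 and 4 CpGs lay 22.7, 23.7 and 27.7 kb from the TSS, none with a 5hmC gain. The 2 sites with both changes lay at the edges of the window, 48.8 kb upstream and 54.4 kb downstream, the latter in an intron of the non-coding gene LINC01509.

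SALL4, a zinc finger factor on chromosome 20 (chr20:51782331-51802521, minus strand), had 16 DMRs (13.3 per 100 kb, more than 92.6% of genes), 8 of them 5hmC gains. By the TSS of the gene record, its intron 1 was the only place within 10 kb of a member TSS where a 5hmC gain lay on a 5mC loss. By the MANE Select TSS, LIN28B had such a place as well. The loss in SALL4 had 29 CpGs (chr20:51794985-51796156), the highest number of any loss in the 10 windows. The gain of 5hmC on it had 15 (chr20:51794985-51795394), the highest of any 5hmC gain, and both began at the same base. Both held a stretch with at least 1000 matches elsewhere in hg38, counted as for NANOG. On the other side of the TSS, 9.54 kb upstream, 5mC was gained over 10 CpGs (chr20:51811657-51812466). A further 5hmC gain and a 5mC loss on it had their midpoints in the promoter, the 2 kb upstream of the TSS, of the neighbour ATP9A, a P4-type ATPase (chr20:51769221-51769754 for 5hmC, 7 CpGs, and to base 51770010 for 5mC, 11 CpGs). Upstream, 4 losses lay 29.5 to 46.0 kb from the TSS in the non-coding gene LINC01429.

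DPPA2 and DPPA4 encode SAP-domain proteins that act as a pair at developmental promoters. They lie next to each other on the minus strand of chromosome 3 (chr3:109293788-109316517 and chr3:109326144-109337546). Each window had 17 DMRs, 13.9 and 15.3 per 100 kb, more than 93.8% and 96.3% of protein-coding genes. DPPA4 had the only DMR within 2 kb of a member TSS. This was a day 8 5mC gain of 20 CpGs centred 1.89 kb upstream (chr3:109338641-109340231, 1591 bases), with its midpoint in the promoter. A second gain, of 17 CpGs, lay in DPPA4 intron 2, 4.61 kb downstream of the TSS (chr3:109332390-109333493). The other 2 gains lay upstream, 19.3 and 20.0 kb from the DPPA4 TSS, in introns of the unnamed gene ENSG00000289358. The outer of these, with 6 CpGs, was called in both stages with starts at the same base (chr3:109357416-109357626 in N3+PGCLCs, 1 base longer on day 8).

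DPPA2 itself had no 5mC gain in its body or within 10 kb of its TSS, where the nearest gain was the one in DPPA4 intron 2, 16.4 kb upstream. Its intron 8 held a 5mC loss of 10 CpGs with a 5hmC gain of 6 on it (chr3:109299473-109300200 for 5mC), and this was the only 5mC loss in either body. The other losses lay between 25.7 and 49.4 kb upstream of the DPPA4 TSS and between 37.2 and 56.0 kb downstream of the DPPA2 TSS. Of the 5hmC gains, 2 without a 5mC loss lay 9.17 and 15.6 kb upstream of DPPA4, between the gain next to its TSS and the gain of both stages.

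LIN28A and LIN28B, paralogues with a cold shock domain, differed in number of calls. LIN28A (chr1:26410817-26429728, plus strand) had 4 DMRs, 3.36 per 100 kb, and 34.5% of protein-coding genes had fewer per 100 kb. They formed 2 sites of 5mC loss with a 5hmC gain inside, 25.7 and 44.5 kb upstream of the TSS, the latter in an intron of ZNF683, a lymphocyte zinc finger factor. The inner loss had 21 CpGs (chr1:26384702-26385624). No call lay in its body, and no gain of 5mC in its window.

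LIN28B (chr6:104936616-105083332, plus strand) had 27 DMRs, the highest number of the 10 genes, in the largest window (247 kb), which is 10.9 per 100 kb. These were 16 losses and 10 5hmC gains of d8 DZ+PGCLCs, 1 loss of N3+PGCLCs and no 5mC gain. The body held 8 of the day 8 losses and 5 of the 5hmC gains, with 3 sites in intron 3 between 105.4 and 106.6 kb from the TSS where the 5hmC gain and the 5mC loss had the same ends. Another 8 losses and 4 5hmC gains lay beyond its 3′ end in introns of BVES, a Popeye domain membrane protein. The loss nearest to the TSS of the gene record lay 3.33 kb downstream (chr6:104939608-104940279, 6 CpGs). The MANE Select TSS of LIN28B is 20491 bases further downstream, and from there the nearest calls were a 5mC loss of 14 CpGs with a 5hmC gain of 7 in intron 2, 4.4 kb downstream (chr6:104961326-104961696). The loss of N3+PGCLCs, chr6:104951553-104951684, had the same ends on day 8. This region is shown as the only 5mC loss of the 10 windows called in both stages, followed by the loss nearest to the TSS of the gene record.
5mC loss of both stages in LIN28B, chr6:104951553-104951684, 2 CpGs: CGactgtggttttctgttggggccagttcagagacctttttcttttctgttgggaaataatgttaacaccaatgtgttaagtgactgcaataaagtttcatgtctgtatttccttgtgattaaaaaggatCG
Day 8 5mC loss nearest to the LIN28B TSS, chr6:104939608-104939907, 3 CpGs: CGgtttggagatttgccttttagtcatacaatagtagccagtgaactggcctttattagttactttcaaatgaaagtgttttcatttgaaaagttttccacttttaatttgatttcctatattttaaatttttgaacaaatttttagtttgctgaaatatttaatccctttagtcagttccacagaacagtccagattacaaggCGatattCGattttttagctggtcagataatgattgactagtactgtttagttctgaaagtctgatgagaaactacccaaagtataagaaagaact
The recurrent loss holds a CpG at each end and none between them.

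PODXL (chr7:131500262-131558217, minus strand) carries the TRA-1-60 antigen used to sort pluripotent cells. It had 9 DMRs, 5.7 per 100 kb, close to the median of 5.06 over all genes. All 3 of its 5mC gains lay in the first part of intron 1, 4.53, 5.33 and 6.19 kb downstream of the TSS, with 6, 10 and 14 CpGs (chr7:131553520-131553862, chr7:131552595-131553174 and chr7:131551793-131552266). The same intron held 2 losses of 11 CpGs each, 32.4 and 37.4 kb from the TSS, neither with a 5hmC gain. The gain of 14 CpGs also held a stretch with at least 1000 matches elsewhere in hg38. A 5hmC gain of 4 CpGs without a 5mC loss lay at its last exon, exon 9, and reached beyond the gene end. The remaining 3 calls lay in MKLN1, a subunit of a ubiquitin ligase. The gain nearest to the TSS is shown.
Day 8 5mC gain in PODXL intron 1, nearest to the TSS, chr7:131553563-131553862, 4 CpGs: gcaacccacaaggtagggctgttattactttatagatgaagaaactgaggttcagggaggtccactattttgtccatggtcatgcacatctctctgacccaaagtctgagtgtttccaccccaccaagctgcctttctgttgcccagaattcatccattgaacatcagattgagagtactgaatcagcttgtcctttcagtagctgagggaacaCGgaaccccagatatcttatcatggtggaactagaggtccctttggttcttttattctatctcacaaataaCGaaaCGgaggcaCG

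POU5F1, the POU-domain factor on chromosome 6 (chr6:31164337-31180731, minus strand), had no DMR of any table, as had 9.83% of protein-coding genes. Its window held 2055 CpGs, more than those of 6 other members. The gene lies in the major histocompatibility complex, and no DMR of the 4 tables lay between bases 29753941 and 33508168 of chromosome 6, a stretch of 3.75 Mb with 54737 CpGs and 157 protein-coding genes. The nearest DMRs were 1430 kb and 2330 kb from its TSS. In the 5 Mb below this stretch the tables held 247 DMRs, and in the 5 Mb above it 366. The stretch was the third longest of 46 stretches over 1 Mb without a DMR, and the longer 2 were on chromosomes Y and X. The 0 at POU5F1 was thus shared with the whole stretch, cannot be read as an unchanged gene, and its cause was not tested.

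**Figure D4:**
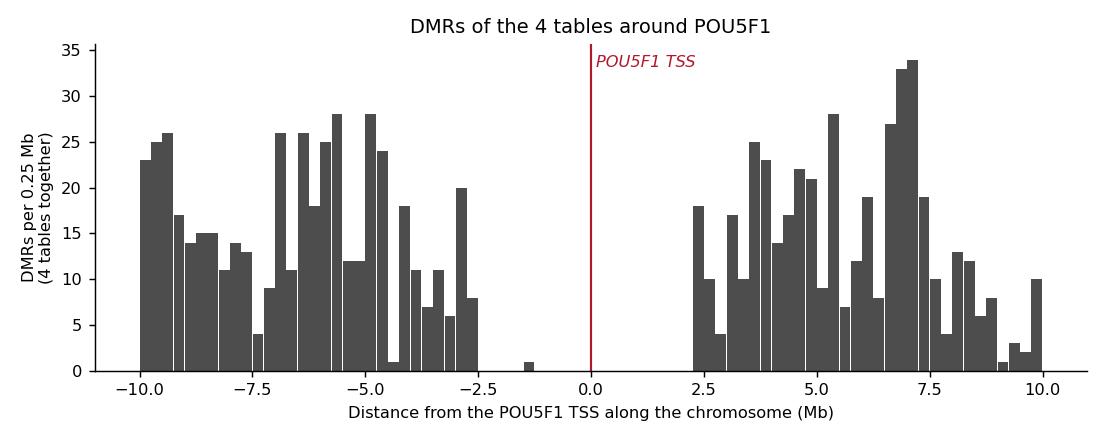
Number of DMRs of the 4 tables together in bins of 0.25 Mb along chromosome 6, by distance from the POU5F1 TSS in Mb. The bins around POU5F1 are empty. Below them, 1 bin with 1 DMR is followed by 4 more empty bins, and bins farther out on either side hold up to 34 DMRs each.

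**Figure D5:**
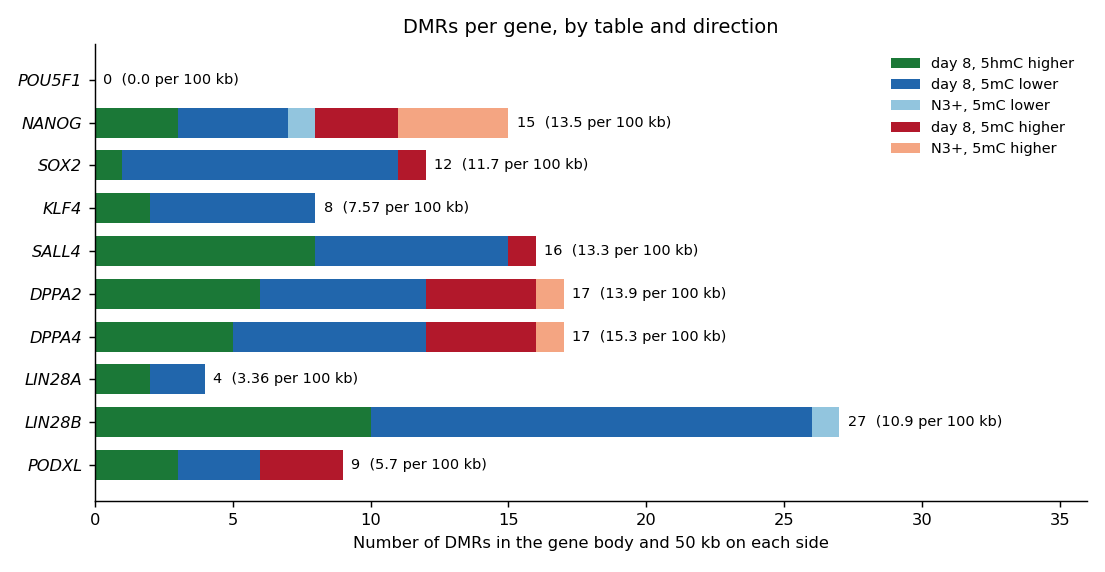
Number of DMRs in the window of each gene, stacked by table and direction, with the total and the number per 100 kb of window. LIN28B has 27, DPPA2 and DPPA4 have 17 each, LIN28A has 4 and POU5F1 has 0, and red and orange segments (5mC gains) occur at 6 genes.

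Gains of 5hmC at the members mostly lay on losses of 5mC. Of 36 day 8 5hmC gains, 28 (77.8%) overlapped a 5mC loss, against 65.9% in the whole table, and 8 of these had the same ends in both tables. Of the 56 losses, 28 overlapped a 5hmC gain and 28 did not, where 37.4% of the whole table did. The 8 5hmC gains without a loss included those upstream of DPPA4 and at the end of PODXL, and none of the 12 5mC gains overlapped a DMR of 5hmC. LIN28B contributed 9 of the 28 and SALL4 6. With an overlap of at least 50% of both DMRs, 17 of the 36 remained paired. The assays were run on separately converted DNA, and since a base with 5hmC is not read as 5mC, gain of 5hmC and loss of 5mC at a site are not independent measurements.

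Between the stages, 4 of the 7 N3+PGCLC DMRs of the members overlapped a day 8 DMR of the same modification and direction, the pair upstream of NANOG, that upstream of DPPA4 and the loss in LIN28B. The other 3 were the calls at NANOG exon 4 and upstream of its TSS. SOX2, KLF4, SALL4, LIN28A and PODXL had calls on day 8 alone, which says nothing on the size of the difference between the stages, because levels are not in the tables.

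Short motifs were counted in the 300 bases centred on each DMR, on both strands. ACANTGT, the centre of the motif bound by DMRT1, was in 7 of 36 5hmC gains of the members (19.4%, against 18.5% of the whole table) and in 12 of 56 losses (21.4% against 17.7%). Among the 12 5mC gains it was in 3 (5.69% of the whole table), those downstream of SOX2, 1.89 kb upstream of DPPA4 and in DPPA4 intron 2. The SOX motif ACAATG, which overlaps ACANTGT where both read ACAATGT, was in 22.2%, 21.4% and 16.7% of the 3 kinds, against 24.8%, 24.5% and 10.4%. The octamer ATGCNAAT of POU factors was in 0 of 36, 3 of 56 (5.36%) and 0 of 12, against 4.53%, 4.62% and 5.06%. These shares rest on few DMRs and a match is no evidence of binding.

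Other genes of pluripotent cells were counted in the same way. Of 28, among them PRDM14, ZFP42 and TDGF1, 15 had a day 8 5mC gain and 12 a 5mC gain in N3+PGCLCs, against 19.0% and 21.9% of all genes. A day 8 5hmC gain lay at 26 and a day 8 5mC loss at 25, against 79.1% and 82.9% of all genes. The median gene of this list had 1 day 8 5mC gain, as the members did. POLR3G, an RNA polymerase III subunit, had the most DMRs with 21, 2 of them day 8 5mC gains, followed by the telomere protein TERF1 with 19 and no gain and E-cadherin, CDH1, with 15 and 1 gain. In the list of the LIN28 and let-7 pathway, all 10 genes had a day 8 5mC loss and a 5hmC gain, 3 had a day 8 5mC gain and 5 a 5mC gain in N3+PGCLCs. The let-7 targets IGF2BP2 with 40 DMRs and HMGA2 with 31 and the uridylyl transferase TUT4 with 27 led it, and none of these 3 had a day 8 5mC gain. Of 11 paralogues of the members, 9 had a day 8 5mC loss, 9 a 5hmC gain, 2 a 5mC gain in N3+PGCLCs and 0 a day 8 5mC gain. POU2F1, a broadly expressed POU factor with a body of 206 kb, had 44 DMRs (14.4 per 100 kb), SALL1 12 (10.3) and SALL2 11 (9.47). No gene of the 3 lists was without a DMR.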

How the data were processed

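TAPSβ (5mC) and CAPS+ (5hmC) libraries of WIS2 cells at 3 stages were sequenced by the authors. Their pipeline used Trim Galore for trimming, Samtools rmdup against duplicates, the GRCh38 assembly and asTair for the modified bases. They called DMRs with DMRfinder from both replicates of a stage together, with a lower threshold for 5hmC. Versions are not given in the sources used here. The deposited tables hold chromosome, start, end and direction only. The depth behind a DMR is unknown from these tables, and the read totals per library that the study lists were not used here. Starts were converted to count from 1.

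DMRs were assigned by midpoint to windows of the gene body with 50 kb on each side (GENCODE release 44), and a CpG belonged to a DMR if at least 1 of its bases lay inside. The 20033 protein-coding genes gave the background. All 10 members are named, other genes where they hold a DMR of a member window, and from each further list the 3 genes with the most DMRs. DPPA3, GDF3 and TDGF1 are described outside this rule. The members and lists were chosen with earlier results of these data known. Counting was tested on simulated data. Python 3.11.15, pysam 0.24.0 and BLAST 2.17.0 were used. No test across samples was possible. The sequences of some DMRs are not reported here.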

Additional observations from a re-analysis of the deposited data

How the results depend on the processing

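No paired analysis was possible because the tables hold no value per replicate, and for the same reason no replicate could be left out. Windows with 10 kb flanks held 9 day 8 5hmC gains at 5 members (56.6% of all genes), 12 5mC losses at 4 (60.9%), 2 N3+PGCLC 5mC gains at 1 (11.5%), and 7 5hmC gains on a loss. The gene body with 2 kb upstream held 8 5hmC gains at 4 members (45.6%), 6 5mC gains at 3, 12 losses at 4 (10010 of 20033 genes), 2 N3+PGCLC gains at 1 (8.94%), 1 N3+PGCLC loss at 1, and 7 5hmC gains on a loss. Windows with 100 kb flanks held 86 day 8 losses at 9 members (90.9% of all genes) and 1 N3+PGCLC 5hmC loss at 1 member. Shares of all genes with an N3+PGCLC loss of 5mC or 5hmC were not counted under these other settings, so those losses have no background. With at least 5 CpGs per DMR, 17 5hmC gains, 15 of them on a loss, and 1 N3+PGCLC loss at 1 member were left. Merging DMRs within 5 kb gave 31 day 8 losses and 3 N3+PGCLC gains. With an overlap of 50% of both DMRs, 17 5hmC gains lay on a loss. From any annotated transcript start, 12 DMRs lay within 5 kb. The median of day 8 losses was 5.28 per 100 kb of window (2.59 over all genes) and 3.02 per 1000 CpGs (1.78). The other values stayed within 1.5 times, 82 in all, beside 30 that moved further. The 82 include counts of 0 that stayed 0, such as all those of day 8 5hmC losses.

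Members with a day 8 5mC gain numbered 5, 7, 3 and 6 with 10 kb flanks, 100 kb flanks, the gene body with 2 kb upstream and at least 5 CpGs, against 9.12%, 28.8%, 6.4% and 16.3% of all genes. With the MANE Select TSS, an alternative added after seeing the data, 4 members had a day 8 5mC gain within 10 kb (4.35% of 19061 genes), 7 gains lay there, and losses went from 2 to 3.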

Other observations

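Among the 28 other pluripotency genes, DPPA3, a germ cell and oocyte protein, had 5 day 8 5mC gains and GDF3, a TGFβ family ligand, had 4, both chosen here after their values were seen. They lie upstream of NANOG on chromosome 12, and their windows share DMRs with each other and, for DPPA3, with that of NANOG. With the DMRs of the member windows left out, 15 of the 28 genes had a day 8 5mC gain, with 27 gains summed over genes, and 12 a 5mC gain in N3+PGCLCs. TDGF1, the Nodal co-receptor, also chosen after its values were seen, had 3 day 8 5mC gains and neither a loss nor a 5hmC gain on that day.

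Copies of the 111 DMRs elsewhere in hg38 were searched with BLAST after the results had been seen. In 18 of them a stretch of at least 100 bases had at least 1000 matches of 90% identity elsewhere, as interspersed repeats have. These were 9 of 56 day 8 5mC losses, 5 of 36 5hmC gains and 2 of 12 5mC gains, the latter being the outer gain upstream of NANOG and the gain with the most CpGs in PODXL intron 1. The N3+PGCLC loss upstream of the NANOG TSS and both changes in SALL4 intron 1 were also among them. A copy of at least 80% of the DMR at 95% identity was found for 1 DMR, that of 3 CpGs in NANOG exon 4. At 90% identity or more, 14 DMRs had such a copy. Among these were the 5mC gain of both stages upstream of DPPA4 and the outer loss downstream of NANOG. How reads from repeats were placed is not given in the sources used here, and its part in these calls was not tested.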
